A study of Mus musculus with 12 samples.

Results

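IgA heavy-chain cells are the spleen cells whose heavy chain was assigned the Igha constant gene in the deposited table of single-cell B cell receptor sequences, and they number 78 of the 13740 heavy-chain cells in that table. They came from 2 SLE.yaa mice of strain B6.Sle1yaa, which gave 42 and 25 of them, and 2 WT mice of strain C57BL/6, which gave 7 and 4. B6.Sle1yaa mice carry the Sle1 lupus interval of chromosome 1 and the Yaa translocation, which places an extra copy of Tlr7 on the Y chromosome. All 4 mice were male, and the table gives an age of 14.9 for the SLE.yaa and 14.4 for the WT mice without a unit. CD45 cells were enriched from each spleen with magnetic beads, and each mouse gave 3 droplet libraries, 1 each for transcripts, B cell receptors and T cell receptors. The labels carry a chimera tag but do not say if bone marrow was transferred. Each group has only 2 mice. The edgeR tests between groups use a common dispersion over all isotypes, so their p-values do not measure the spread of IgA alone between those animals.

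IgA is the antibody class of mucosal surfaces, where plasma cells secrete it as dimers joined by the J chain. A B cell reaches it by class switching, a deletion within the heavy-chain locus that brings a downstream constant gene next to the rearranged V region, so that relatives of 1 clone can carry different isotypes. Igha is the last constant gene of that locus, and a cell that has switched to an IgG can still switch onward to IgA. Somatic hypermutation adds point changes to the V region during responses in germinal centres and outside them.

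The locus lies on chromosome 12 of GRCm38, with Igha at chr12:113256204-113260236, Ighg2c at chr12:113287389-113288932 and Ighm at chr12:113418826-113422730. The junctions of the IgA clones described one by one are shown here because the deposited clones can be read against them. Each is the deposited nucleotide sequence, 5′ to 3′, from the conserved cysteine codon to the conserved tryptophan codon, with CDR3 in capitals between those codons in lower case.
IGHV8-8 IGHJ1, all 3 cells of the clone, each IgA, SLE.yaa 1: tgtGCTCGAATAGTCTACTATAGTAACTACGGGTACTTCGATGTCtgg
IGHV5-9-1 IGHJ4, all 12 cells of the clone, 2 IgA and 10 IgG, SLE.yaa 1: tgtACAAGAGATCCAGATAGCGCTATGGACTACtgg
IGHV2-2 IGHJ4, junction of the IgA cell, read in 4 of the 13 cells of the clone, SLE.yaa 1: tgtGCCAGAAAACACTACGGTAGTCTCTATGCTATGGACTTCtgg
IGHV1-72 IGHJ4, junction of the IgA cell, read in 3 of the 20 cells of the clone, SLE.yaa 2: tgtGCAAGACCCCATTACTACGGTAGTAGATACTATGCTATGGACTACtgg
IGHV1-75 IGHJ4, first IgA cell, SLE.yaa 1: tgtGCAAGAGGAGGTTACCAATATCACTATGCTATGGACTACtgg
IGHV1-75 IGHJ4, second IgA cell, SLE.yaa 1: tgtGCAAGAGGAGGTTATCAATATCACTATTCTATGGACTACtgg
The IGHV1-75 junctions differ at C18T and G31T, with positions counted from 1 at the first base shown and the first cell's base given first.

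The libraries held 2873 to 3773 heavy-chain cells per mouse. Their contigs had 4522016 and 1694563 unique molecular identifiers (UMIs) in total in SLE.yaa mice, against 69172 and 70908 in WT mice. The expression table held 4961 to 6130 cells per mouse, including 340 and 287 annotated plasma cells in SLE.yaa mice and 12 and 11 in WT mice. Of the heavy-chain barcodes, 80 occurred in more than 1 library, 1 of them on an IgA cell. A T cell receptor was also read in 2 IgA cells (2.56%), against 44 of 1417 IgG cells (3.11%).

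The Igha transcript checked the isotype in the 57 IgA cells that the expression table also holds. Values there are the authors' natural log of depth-corrected counts, taken back here to whole values per cell. In IgA plasma cells Igha averaged 638 and 1050 per cell in the SLE.yaa mice, and 1468 and 1127 in the single IgA plasma cell of each WT mouse. In IgG plasma cells it averaged 1.20 and 4.16 in the SLE.yaa mice. It was above 0 in every IgA plasma and IgA B cell of all 4 mice. The lowest values in IgA B cells were 1 in SLE.yaa 1, 4 in SLE.yaa 2 and 3 in each WT mouse. Igha was also above 0 in 39.9% and 54.1% of IgG plasma cells and 23.8% and 37.1% of IgG B cells of the SLE.yaa mice. A value above 0 alone therefore does not settle the isotype of a B cell. As a measure of free RNA, T cells had a value above 0 in 2.81% and 2.48% of cells in SLE.yaa mice and in 2.97% and 0.214% in WT mice, at median depths of 3914 to 4929 UMIs.

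IgA cells made up a larger part of the heavy-chain cells in SLE.yaa spleens. They were 1.19% (exact binomial 95% interval 0.856 to 1.60) and 0.878% (0.569 to 1.29) of chains with an isotype in the SLE.yaa mice, against 0.200% (0.0805 to 0.412) and 0.106% (0.0289 to 0.272) in the WT mice. The groups did not overlap, and the means were 1.03% ± 0.218 in SLE.yaa and 0.153% ± 0.0665 in WT mice (SD, n = 2 each). The log2 fold change was 2.75 (edgeR quasi-likelihood test, adjusted p = 0.00148), with 7 of 8 isotypes called (87.5%). That direction rests on scaling by the total of heavy chains, since trimmed-mean (TMM) scaling over the 8 isotypes gave a log2 fold change of -1.11 (adjusted p = 0.187). Without annotated plasma cells, whose number moved with the group, the log2 fold change was 2.16 (adjusted p = 0.0180). That setting kept the cells with no entry in the expression table, which have no annotation, so it need not remove all plasma cells. Of such IgA cells, 9 of 13 in SLE.yaa 1 and 4 of 6 in SLE.yaa 2 had over 100 contig UMIs. Counting each clone once, IgA was 1.07% ± 0.165 of clone and isotype pairs in SLE.yaa and 0.155% ± 0.0682 in WT mice (log2 fold change 2.78, adjusted p = 0.000907, 6 of 8 isotypes called, 75%). The sign of the clone value turned in the same way with TMM scaling (-0.67, adjusted p = 0.259). Intervals here cover counting error only.

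Within the switched chains the order was the opposite. IgA was 42 of 859 (4.89%, 3.55 to 6.55) and 25 of 598 (4.18%, 2.72 to 6.11) IgA, IgG and IgE chains in SLE.yaa mice, against 7 of 29 (24.1%, 10.3 to 43.5) and 4 of 11 (36.4%, 10.9 to 69.2) in WT mice. The intervals of the SLE.yaa mice lay below those of the WT mice. The log2 fold change was -2.60 (edgeR, adjusted p = 0.0141), with 2 of 6 isotypes called (33.3%), the other one being IgG2c at 2.30 (adjusted p = 0.0189). IgG2c was 50.4% and 49.8% of switched chains in SLE.yaa mice and 6.90% and 18.2% in WT mice. This comparison was added after the shares were seen, and the IgA call was lost without WT 1 (adjusted p = 0.124) or WT 2 (adjusted p = 0.0552).

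**Figure D1:**
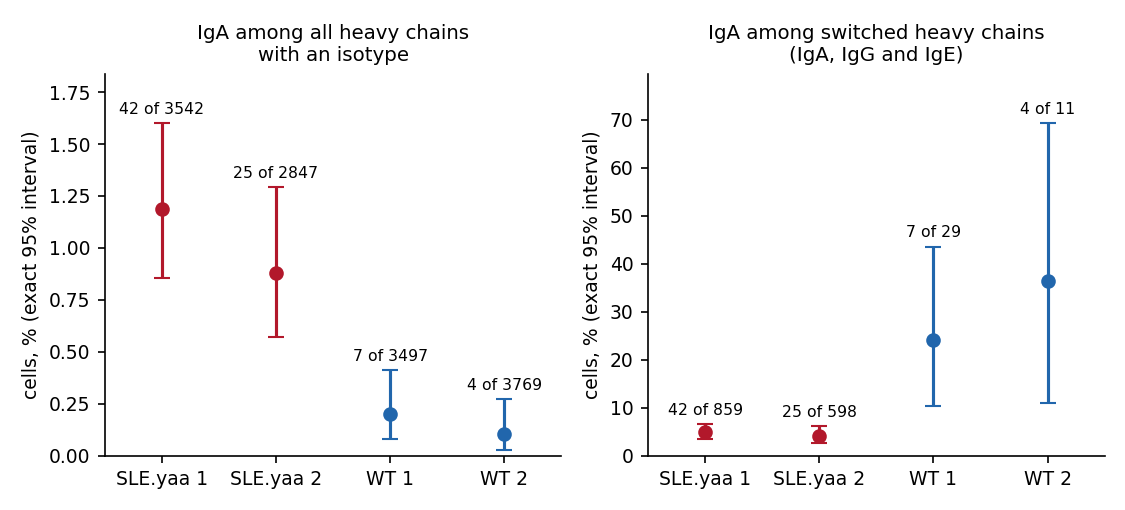
IgA cells of each mouse as a percentage of all heavy chains with an isotype (left) and of switched chains (right), with exact 95% binomial intervals and the counts above them. SLE.yaa mice stand at 1.19% and 0.878% against 0.200% and 0.106% in WT mice on the left, and at 4.89% and 4.18% against 24.1% and 36.4% on the right.

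Most annotated IgA cells of SLE.yaa mice were plasma cells. The authors' annotation, read for cells in the expression table, gave 22 of 29 IgA cells in SLE.yaa 1 as plasma cells (75.9%, 56.5 to 89.7) and 12 of 19 in SLE.yaa 2 (63.2%, 38.4 to 83.7). IgG cells of the same mice were plasma cells in 213 of 268 (79.5%) and 218 of 295 (73.9%). The within-mouse log2 ratio of IgA over IgG was -0.13 for plasma cells and 0.52 for B cells (edgeR with mouse as a block, adjusted p = 0.618 and 0.425, n = 2 mice). None of the 3 types tested was called (0%), at an unadjusted p under 0.05 too. In WT mice 1 of 6 and 1 of 3 annotated IgA cells were plasma cells. None of 9 and 4 annotated WT IgG cells was, which allows shares of up to 33.3% and 75%.

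The remaining annotated IgA cells were B cells, apart from 1 cell of SLE.yaa 2 annotated CD8, which also had a T cell receptor. Of the IgA cells annotated B, 1 of 7 in SLE.yaa 1 and 4 of 6 in SLE.yaa 2 had over 1000 contig UMIs. Their Igha values were 1164 in SLE.yaa 1 and 1395 to 1746 in SLE.yaa 2, within the range of 129 to 1859 seen in annotated IgA plasma cells of both mice. Ms4a1, the B cell surface protein CD20, was at 0 in all 5 of these cells, while Sdc1, the plasma cell surface protein CD138, was above 0 in each. The limit of 1000 UMIs was set after the values were seen. IgG cells annotated B of the SLE.yaa mice also had contigs of up to 10552 and 10894 UMIs. Over 100 contig UMIs were read in 9 of 42 and 15 of 70 of them, against 1 of 7 and 4 of 6 IgA cells annotated B. The 5 IgA cells above were not counted as plasma cells in the expression comparison below. WT IgA cells annotated B had Igha values of 3 to 15 and Ms4a1 above 0 in 5 of 5 and 2 of 2 cells.

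IgA cells were found in the expression table more often than IgG cells. In SLE.yaa mice 13 of 42 IgA cells (31.0%, 17.6 to 47.1) and 6 of 25 (24.0%, 9.36 to 45.1) had no entry there, against 547 of 815 IgG cells (67.1%, 63.8 to 70.3) and 278 of 573 (48.5%, 44.4 to 52.7). The intervals of the classes were apart in SLE.yaa 1 and overlapped in SLE.yaa 2. In WT mice 1 of 7 and 1 of 4 IgA cells had no entry, against 13 of 22 and 3 of 7 IgG cells. Deposited cells hold at most 2999 genes, and plasma cells lie near that limit, with medians of 2556 and 2396 genes in IgA and 2661 and 2577 in IgG plasma cells of the SLE.yaa mice. The part of this limit in the difference was not tested.

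**Figure D2:**
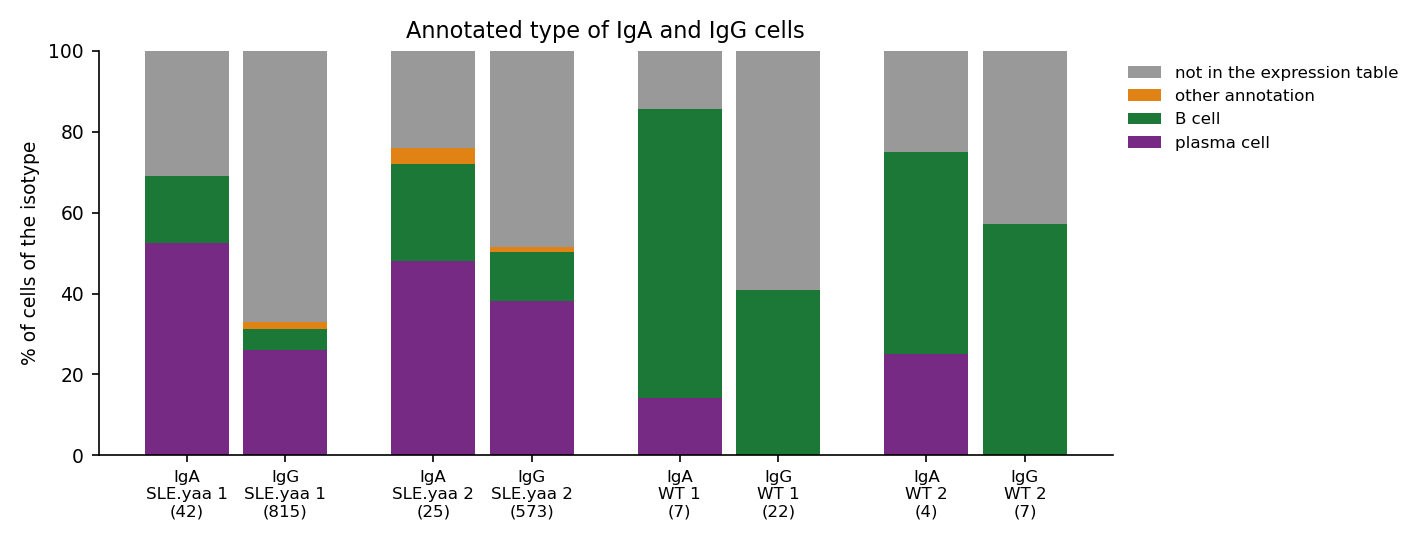
Percentage of IgA and IgG cells of each mouse by annotated type, with cell numbers in brackets. In both SLE.yaa mice the cells with no entry in the expression table are a smaller part of IgA (31.0% and 24.0%) than of IgG (67.1% and 48.5%).

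V gene use of IgA was spread widely. The 74 IgA clones used 44 IGHV genes, 30 of which served a single clone. The leading genes were IGHV1-55 (chr12:115208137-115208527), IGHV1-7 (chr12:114538495-114538788) and IGHV3-6 (chr12:114288152-114288447) with 5 clones each, then IGHV1-26 and IGHV1-53 with 4 each. IGHV1-7 was used by 2 of 38 and 3 of 25 IgA clones of the SLE.yaa mice, against 7 of 565 and 12 of 369 IgG clones. At a log2 ratio of 1.94 it did not pass adjustment over the 58 genes (edgeR with mouse as a block, adjusted p = 0.838). None of the 58 was called (0%), and IGHV1-7 alone had an unadjusted p under 0.05. With only 38 and 25 IgA clones, the lack of calls does not show that IgA and IgG use V genes alike. IGHV1-55 was in 3 of 38 clones of SLE.yaa 1 and in 1 IgA clone of each WT mouse.

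The large IGHV1 family held 21 of 38 (55.3%) and 18 of 25 (72.0%) IgA clones of SLE.yaa mice, against 350 of 565 (61.9%) and 239 of 369 (64.8%) IgG clones. In WT mice it held 4 of 7 and 2 of 4 IgA clones. The SLE.yaa mice lay on opposite sides of their IgG share. J gene use differed between the 2 mice as well. IGHJ3 was in 7 of 38 and 13 of 25 IgA clones of SLE.yaa mice, against 117 of 565 and 73 of 369 IgG clones. None of the 4 IGHJ genes was called (0%), with log2 ratios of -0.68 to 0.67 (edgeR with mouse as a block, adjusted p = 0.620 or more). None had an unadjusted p under 0.05. So few IgA clones do not show that J use is alike either. With fewer than 10 IgA clones a mouse, WT V and J use was not tested.

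CDR3 of IgA was of the usual length. It averaged 12.2 and 12.3 residues over the IgA clones of SLE.yaa 1 and SLE.yaa 2, against 12.4 and 12.3 over IgG clones. The mean difference was -0.121 residues (exact paired sign-flip test over 2 mice, two-sided, p = 0.5, the smallest that 2 mice allow). In WT mice IgA clones averaged 12.4 and 10.5 residues and IgG clones 12.6 and 10.5. The net CDR3 charge was higher in IgA clones of every mouse, at 0.0806 and -0.348 in SLE.yaa and 0.288 and 0.497 in WT mice, against -0.382, -0.557, -0.277 and -0.613 in IgG clones. The charge comparison was added after the values were seen and was not tested.

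Averaged over cells, IgA chains had a slightly higher mutation frequency than IgG chains in SLE.yaa mice and a lower one in WT mice. The authors' mutation frequency, the share of compared heavy-chain bases that differ from germline, was deposited for IgA and IgG chains. It averaged 1.31% and 1.30% over the IgA cells of the SLE.yaa mice, against 1.08% and 0.979% over IgG cells. In WT mice it averaged 0.882% and 0.885% over IgA cells, against 1.71% and 1.57% over IgG cells. The difference of IgA minus IgG was thus 0.233 and 0.319 percentage points in SLE.yaa and -0.824 and -0.682 in WT mice. The mean SLE.yaa difference of 0.276 points had an exact paired sign-flip p of 0.5, the smallest 2 mice allow. With medians over cells it was 0.143 points and the mice had opposite signs, at 0.864% in IgA against 0.877% in IgG cells of SLE.yaa 1 and 1.16% against 0.860% in SLE.yaa 2. In plasma cells alone it was 0.0468 points, again with opposite signs. Between groups, IgA averaged 1.30% ± 0.00953 in SLE.yaa and 0.884% ± 0.00181 in WT mice (SD, n = 2 each, exact permutation test, two-sided, p = 0.333, the smallest that 2 against 2 allow). By medians over IgA cells the groups overlapped, at 0.864% and 1.16% in SLE.yaa and 0.880% and 0.882% in WT mice. The SD over the IgA cells of a mouse was 0.762 to 1.36 points, far above the SD between mice.

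The IgA cells annotated B were on average the more mutated ones in SLE.yaa mice. They averaged 2.45% over 7 cells and 2.07% over 6 cells, against 1.20% over 22 and 0.912% over 12 IgA plasma cells. IgG cells annotated B averaged 1.25% and 0.866%, and IgG plasma cells 0.989% and 1.03%. The comparison of IgA with IgG among cells annotated B was added after the values were seen. Its mean difference of 1.20 points had an exact paired sign-flip p of 0.5, the smallest 2 mice allow. IgA cells annotated B were not tested against IgA plasma cells. Among the IgA cells annotated B, those with 1000 contig UMIs or fewer averaged 2.62% over 6 cells of SLE.yaa 1 (0.292% to 4.76%). In SLE.yaa 2 they averaged 2.52% over 2 cells, which were at 0 and 5.04%. Of the 6, 1 with 12 contig UMIs and 3.37% had values of 230 for Igha, 4 for Sdc1 and 1 for Ms4a1. The limit therefore need not part B cells from plasma cells. In WT mice IgA cells annotated B averaged 1.0% over 5 cells and 0.888% over 2 cells.

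Single IgA cells ranged from unmutated to 4.76% and 5.04% in the SLE.yaa mice and to 2.04% and 1.78% in the WT mice. Unmutated chains were 13 of 42 (31.0%) and 7 of 25 (28.0%) IgA cells of SLE.yaa mice, against 202 of 815 (24.8%) and 138 of 573 (24.1%) IgG cells. They were 2 of 7 and 1 of 4 IgA cells of WT mice, against 2 of 22 and 1 of 7 IgG cells. In the SLE.yaa mice 78.0% of 41 and 86.8% of 38 CDR1 and CDR2 mutations of IgA replaced an amino acid, against 80.7% of 870 and 81.8% of 510 in IgG. V identity to germline averaged 98.6% and 98.6% in IgA of SLE.yaa mice, against 98.8% and 99.0% in IgG. It averaged 99.2% and 99.0% in IgA of WT mice, against 98.2% and 98.4% in IgG. The SLE.yaa difference of -0.309 points again had an exact sign-flip p of 0.5.

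**Figure D3:**
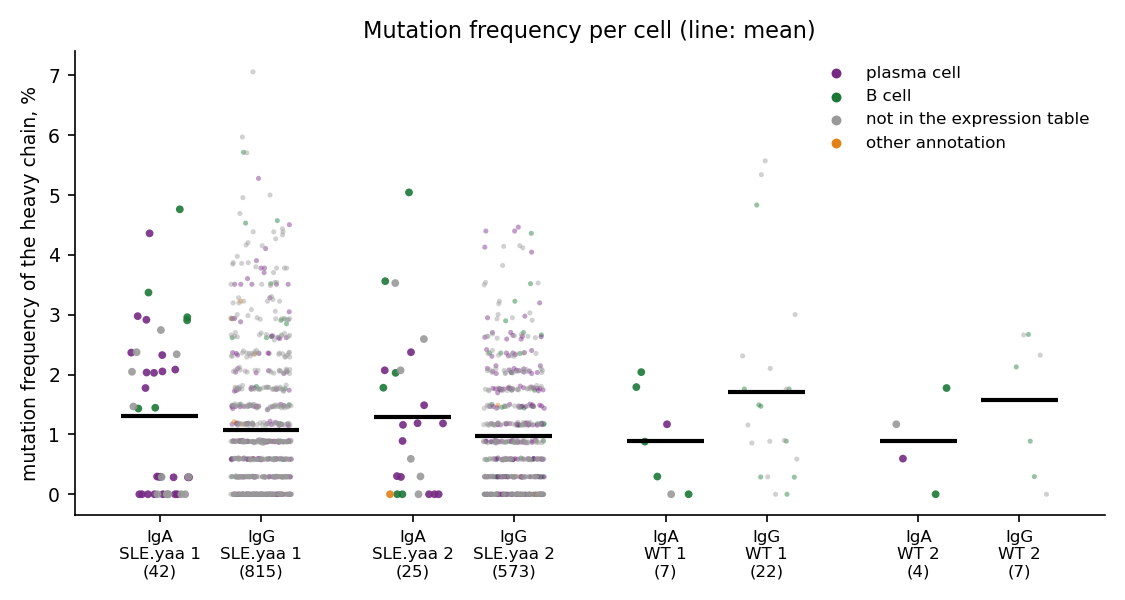
Mutation frequency of each IgA and IgG heavy chain by mouse, coloured by annotated type, with a line at the mean and cell numbers in brackets. The IgA mean lies above the IgG mean in both SLE.yaa mice (1.31% and 1.30% against 1.08% and 0.979%) and below it in both WT mice (0.882% and 0.885% against 1.71% and 1.57%).

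A minority of the IgA clones of SLE.yaa mice also held another isotype. These were 9 of 38 clones (23.7%, 11.4 to 40.2) in SLE.yaa 1 and 7 of 25 (28.0%, 12.1 to 49.4) in SLE.yaa 2. In WT mice they were 0 of 11 IgA clones, with an exact 95% interval that reaches 28.5%. Of the 16 SLE.yaa clones with another isotype, 15 held IgG cells, 13 held IgG2c and 1 held IgM. A partner of another isotype was found for 10.9% and 10.0% of IgG2c clones, 16.6% and 17.6% of IgG2b clones and 8.06% and 7.41% of IgG1 clones of the same SLE.yaa mice. The IgG3 shares were 27.5% and 12.5%. The exact 95% intervals of IgA overlapped those of each IgG isotype in both mice, and the difference was not tested.

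The clones that mixed isotypes included some of the larger ones. The IGHV1-72 clone of SLE.yaa 2 held 1 IgA, 13 IgG2c, 5 IgG2b and 1 IgG3 cells, with 15 different junctions among these 20 cells. Its IgA cell was a plasma cell with 4 V mutations, of which 2 were shared with a relative. The IGHV2-2 clone of SLE.yaa 1 held 1 IgA, 7 IgG2c and 5 IgG2b cells with 8 different junctions, and its IgA cell shared 3 of 7 V mutations with a relative. In the IGHV5-9-1 clone of SLE.yaa 1, with 2 IgA, 6 IgG2c and 4 IgG1 cells, all 12 junctions were identical, and neither IgA cell had a V mutation.

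**Figure D4:**
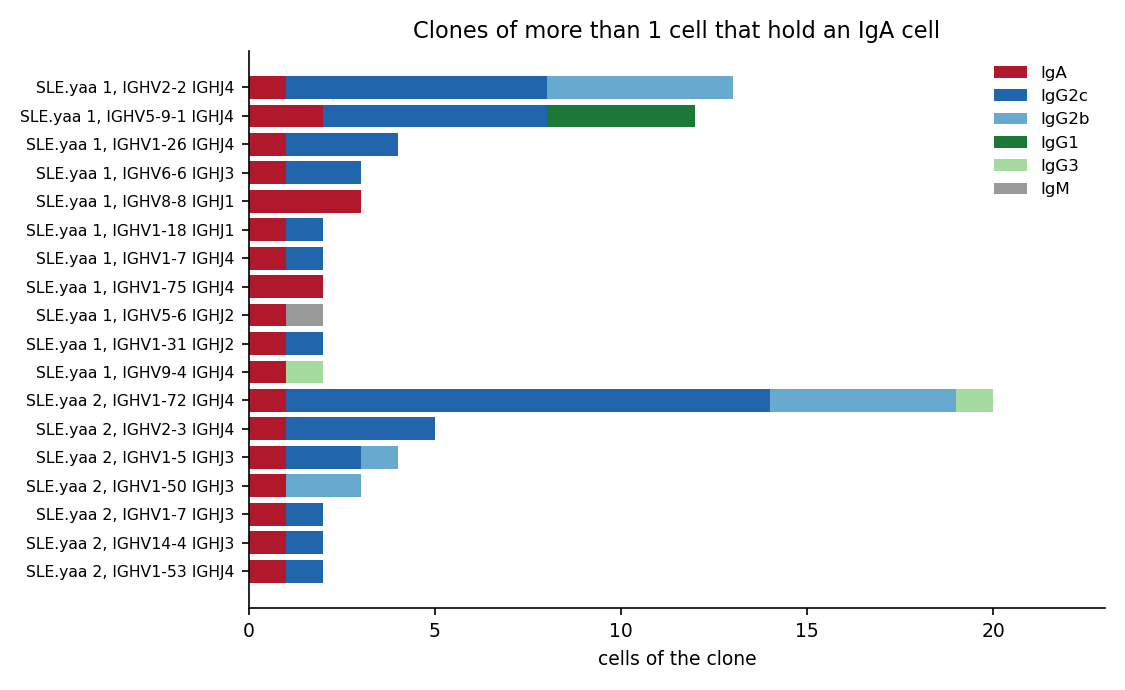
Isotypes of the 18 clones with an IgA cell and more than 1 cell, all from SLE.yaa mice, as numbers of cells along the horizontal axis. IgG2c accompanies IgA in 13 of them, and the IGHV8-8 and IGHV1-75 clones of SLE.yaa 1 hold IgA alone.

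Over these 16 clones, 17 IgA cells had relatives of another isotype, and 7 of the 17 were unmutated in the V segment. The 10 mutated ones carried 46 V mutations, 22 of them shared with a relative of another isotype and 24 private. In 7 cells at least 1 mutation was shared, and in 8 cells at least 1 was private. The cells of SLE.yaa 1 with IgG relatives averaged 1.01% mutation frequency over 9 cells, against 1.39% over the 33 others. In SLE.yaa 2 they averaged 0.800% over 7 cells, against 1.49% over the 18 others.

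Only 2 clones held more than 1 cell and IgA alone. The 3 plasma cells of the IGHV8-8 clone (germline gene at chr12:115294066-115294362) had 13545, 9510 and 9080 contig UMIs, identical junctions and no V mutation. In the IGHV1-75 clone the plasma cell with the first junction shown had 8 V mutations and the one with the second had 14. They shared none, and the clone rests on the deposited assignment and the junctions above. The chance that 2 IgA cells drawn from 1 mouse belonged to 1 clone was 0.581% in SLE.yaa 1 and 0 in SLE.yaa 2, against 0.294% and 0.593% for IgG cells. The sign of that difference was not the same in the 2 mice.

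IgA plasma cells had more Txndc5 and Tnfrsf17 and less Pld4 and Fgl2 than IgG plasma cells of the same spleens. Mean values per cell were scaled to sum to 1000000 per cell class (values per 1000000, vpm), and only the SLE.yaa mice had both classes, with 22 and 12 IgA against 213 and 218 IgG plasma cells. SLE.yaa 1 alone met the planned minimum of 20 cells and allowed no test there; 352 of 6465 genes (5.44%) differed by at least 1 on the log2 scale. With both mice, limma called 70 of 8067 genes (0.868%), 15 higher and 55 lower in IgA, on the log2(value + 10) scale with mouse as a block. These counts include 5 immunoglobulin genes, Igha among the higher and Ighg1, Ighg2b, Ighg2c and Ighg3 among the lower, whose direction the choice of the classes fixed. With immunoglobulin genes left out of the table limma called 37. The median over all genes was -0.22, and changes are to be read relative to that value. The fit has 1 residual degree of freedom, so its SE and p-values rest largely on a variance shared over genes of similar level. They do not measure the spread of each gene between the 2 mice. Means of 22 and 12 IgA cells also weigh as much as those of 213 and 218 IgG cells. Without the block the fit called 0 genes, Igha included (786 at an unadjusted p under 0.05). With a pseudocount of 1 it called 2, Igha and Ighg2c.

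Txndc5, a protein disulfide isomerase of the endoplasmic reticulum, had 4147 and 3049 vpm in IgA plasma cells, against 729 and 692 in IgG plasma cells. It was above 0 in all IgA plasma cells of both mice, and the log2 fold change was 2.31 ± 0.180 (SE, limma adjusted p = 1.48e-14; 0.0950 without the block and 0.100 with a pseudocount of 1). Tnfrsf17, which encodes the plasma cell survival receptor BCMA, had 389 and 263 vpm, against 44.6 and 44.7. It was above 0 in 18 of 22 and 8 of 12 IgA plasma cells, against 47 of 213 and 40 of 218 IgG plasma cells (log2 fold change 2.60 ± 0.269, limma adjusted p = 3.80e-10; 0.106 and 0.130 under the same changes). Both genes were higher in IgA in each of the 2 mice, as were 1448 of the 8067 genes tested.

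Crip1, a small LIM domain protein, had 1780 and 942 vpm in IgA plasma cells, against 346 and 427 in IgG plasma cells (log2 fold change 1.73). It was above 0 in 17 of 22 and 6 of 12 IgA plasma cells, against 139 of 213 and 151 of 218 IgG plasma cells, so that in SLE.yaa 2 the mean was higher and the share of cells lower in IgA. The interferon-induced gene Ifi27l2a had 612 and 1095, against 286 and 487 (log2 fold change 1.11). It was above 0 in 6 of 22 and 8 of 12 IgA plasma cells, against 84 of 213 and 102 of 218 IgG plasma cells, a lower share in IgA in SLE.yaa 1. Both were called by limma (adjusted p = 1.07e-08 for Crip1 and 9.19e-05 for Ifi27l2a), and neither without the block (0.420 and 0.476) or with a pseudocount of 1 (0.696 and 0.466). Ifi27l2a also lost its call without TMM factors (adjusted p = 0.0719 by limma). Klf2, a transcription factor of lymphocyte trafficking, had the largest fitted rise outside the immunoglobulin genes at 2.83, but was above 0 in only 2 of 22 and 2 of 12 IgA plasma cells. Anxa2 and Lgals3 were each above 0 in 1 of 22 and 2 of 12. Tagln2, Ptpn6 and Ahnak complete the 10 largest fitted rises, at log2 fold changes of 1.73 to 1.93, and these too rest on few cells. Tagln2 was above 0 in 2 of 22 and 1 of 12 IgA plasma cells, against 27 of 213 and 25 of 218 IgG plasma cells. Ptpn6 was above 0 in 3 of 22 and 2 of 12 IgA plasma cells, and Ahnak in 1 of 22 and 1 of 12.

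Pld4, an endolysosomal nuclease that limits Toll-like receptor ligands, fell to 15.9 and 13.9 vpm in IgA plasma cells, against 243 and 266 in IgG plasma cells. It was above 0 in 2 of 22 and 1 of 12 IgA plasma cells, against 128 of 213 and 124 of 218 IgG plasma cells. The log2 fold change was -3.41 ± 0.333 (SE, limma adjusted p = 5.90e-11; 0.0699 without the block and 0.100 with a pseudocount of 1). Fgl2, a fibrinogen-like protein, had 23.8 and 27.7 vpm, against 183 and 222 (log2 fold change -2.57, limma adjusted p = 8.89e-08; 0.0950 and 0.153 under the same changes). Mef2b, Far1 and Stard5 also fell, and Oip5os1, Casp8ap2, Cldn7, Ly6k and Mis12 were called while listed at 0 in the IgA plasma cells of both mice, where 1 cell with a value of 1 is worth 7.93 and 14.2 vpm. Of the 55 genes called lower, 42 were above 0 in IgA plasma cells of both mice.

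**Figure D5:**
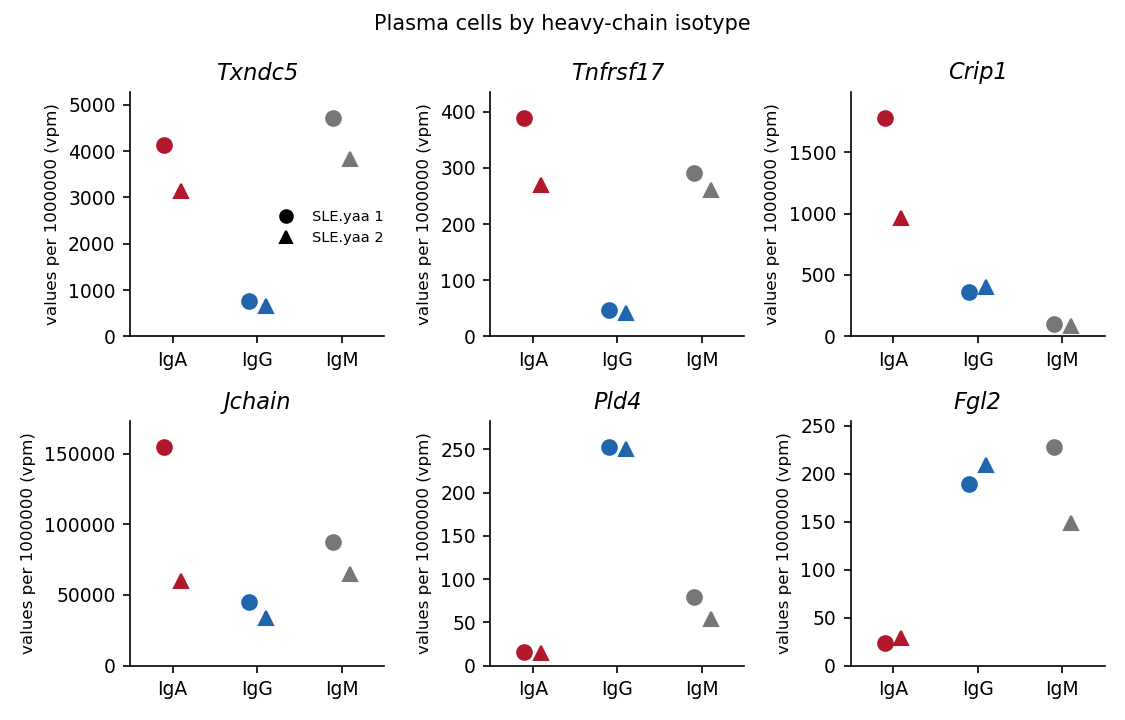
Values per 1000000 (vpm), on linear axes from 0 and without TMM factors, of 6 genes in IgA, IgG and IgM plasma cells of the 2 SLE.yaa mice (circles SLE.yaa 1, triangles SLE.yaa 2). Txndc5 and Tnfrsf17 are high in IgA and IgM and low in IgG, while Crip1 is highest and Pld4 lowest in IgA.

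IgM plasma cells of the same mice, 96 and 49 in number, stood with IgA for some of these genes. Without TMM factors, Txndc5 had 4138 and 3130 vpm in IgA, 755 and 653 in IgG, and 4710 and 3823 in IgM plasma cells. Tnfrsf17 had 388 and 270 in IgA, 46.2 and 42.2 in IgG, and 291 and 261 in IgM. Pld4 had 15.9 and 14.2 in IgA, 252 and 251 in IgG, and 79.2 and 54.5 in IgM. For Crip1 the order differed, with 1776 and 968 in IgA, 358 and 402 in IgG, and 99.0 and 87.1 in IgM. Fgl2 in IgM cells, at 228 and 149, was near its IgG level. The IgM values were added after the IgA results were seen and were not tested. In the single IgA plasma cell of each WT mouse Txndc5 was 1527 and 6686 vpm, Tnfrsf17 436 and 627, and Pld4 was listed at 0.

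Among the gene lists, 1 of 15 tested plasma cell genes was called, Tnfrsf17, and the list median was -0.13 against -0.22 over all genes. Sdc1 had 318 and 236 vpm in IgA, against 333 and 271 in IgG plasma cells. Xbp1, the transcription factor of the secretory programme, had 3671 and 1816, against 4504 and 3410 (limma adjusted p = 0.144). Jchain, whose product joins IgA dimers and IgM pentamers, had 154734 and 58379, against 43622 and 35597 (log2 fold change 1.27, adjusted p = 0.0928). Jchain was among the 1448 of 8067 tested genes that were higher in IgA in both mice, but it was not called.

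Of 9 tested homing genes, Klf2 was higher, on 2 of 22 and 2 of 12 IgA plasma cells above 0. Cxcr3, a chemokine receptor for interferon-induced ligands, was lower (111 and 27.7 vpm, against 164 and 148, log2 fold change -1.29, limma adjusted p = 0.0230). It was above 0 in 5 of 22 and 2 of 12 IgA plasma cells, against 106 of 213 and 101 of 218 IgG plasma cells. The Cxcr3 call was lost with immunoglobulin genes left out, without TMM factors, without the block and with a pseudocount of 1 (limma adjusted p = 0.0748, 0.437, 0.532 and 0.696). Ccr10, the receptor of IgA plasma cells for mucosal chemokines, had 71.5 and 55.4, against 13.0 and 16.3 (log2 fold change 1.57, adjusted p = 0.113). Itgb7, a subunit of the gut homing integrin, had 151 and 139, against 62.5 and 87.7 (adjusted p = 0.157). Neither passed the test. Of 12 tested genes for IgA switching and survival signals 1 was called, again Tnfrsf17. The list median was 0.48 for homing and -0.05 for switching and survival.

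Of 7 tested B cell genes none was called by limma, with a median of -0.65 against -0.22 over all genes. An unadjusted p under 0.05 was found for 5 of the 7, against 926 of all 8067 genes in the same limma fit. It was found for 5 of 15 plasma cell, 4 of 9 homing and 3 of 12 switching and survival genes. Of 4 germinal centre genes Mef2b was lower, and of 2 age-associated B cell genes Cxcr3 was lower (3 and 1 at an unadjusted p under 0.05). None of 5 proliferation, 5 B-1 and 2 marginal zone genes was called (0, 0 and 1 at an unadjusted p under 0.05). Of 4 tested genes on the monocyte list, Ly6c2 and Cst3 were lower in IgA (397 and 1857 vpm against 1383 and 3075 for Ly6c2). These 2 calls were lost without TMM factors (limma adjusted p = 0.301 and 0.382), without the block and with a pseudocount of 1. Most IgG plasma cells had Ly6c2 and Cst3, with Ly6c2 above 0 in 163 of 213 and 177 of 218 and Cst3 in 210 of 213 and 215 of 218. Lyz2, of the same list, was above 0 in 7 of 213 and 4 of 218. Of 2 macrophage genes none was called (0 at an unadjusted p under 0.05), and no T cell, neutrophil or erythroid marker passed the minimum value. The part of other cells' RNA in the calls was not tested.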

How the data were processed

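Processing with Cell Ranger 5.0.0 and Seurat 4.0.0 on GRCm38 (mm10) is given per the submitters' processing notes. From the deposited receptor table came whole UMI counts and clone sizes, V identity and mutation frequency as fractions, and CDR3 charge as a score, all made by the authors; mitochondrial percent came from the authors' cell table. The expression table holds the authors' natural log values per gene and cell. Their exponentials minus 1 were whole to within 1.64e-11, sums per cell differed only 2.40-fold, and they were treated as depth-corrected values, not counts, so limma was used where the plan allowed a count test. The 15 entries without a gene name (0.0440% of values) were left out. No sample column was left unmapped (0).

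Isotype, cell type, V and J counts were tested with edgeR 4.0.16, with totals as library sizes. The dispersion was common, except for V genes, where it followed a trend with abundance. Expression was tested with limma 3.58.1 on TMM-scaled means per 1000000 plus 10, for genes of at least 10 per 1000000 in 2 libraries. DESeq2 1.42.0 was an alternative, under R 4.3.3 and Python 3.11.15. Adjusted p is Benjamini-Hochberg over all features tested, with calls under 0.05. IgA and IgG of 1 mouse come from the same animal, so mouse is a block. Minimums were 10 IgA cells or clones a mouse, 5 clones an IGHV gene, 5 cells a type and, as planned, 20 plasma cells (lowered to 10 for the fit of 2 mice). Named genes are the 10 highest and 10 lowest calls by log2 change outside immunoglobulin genes, plus list members; named V genes are the 5 most frequent; clones of fewer than 3 IgA cells and the other genes named were chosen after their values were seen. The members and lists were chosen with earlier results of these data known. V and J positions are RefSeq's for GRCm38.p6, which held all 44 IGHV genes. No doublet caller was run; cells with both receptors were left out as an alternative.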

Additional observations from a re-analysis of the deposited data

Results flagged for a closer look

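The difference in mutation frequency between IgA and IgG, as means over cells, had one sign in both SLE.yaa mice, at 0.233 and 0.319 percentage points, and the other in both WT mice, at -0.824 and -0.682 points. V identity showed the mirror image, with IgA minus IgG at -0.206 and -0.412 points in SLE.yaa and 1.07 and 0.535 points in WT mice. Both were picked out because every mouse of one group moved against every mouse of the other. With medians over cells SLE.yaa 1 had 0.864% in IgA against 0.877% in IgG and no longer shared the sign of SLE.yaa 2. The difference between the groups was not tested, and the WT values rest on 7 and 4 IgA and 22 and 7 IgG cells. The 2 measures describe the same sequences.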

How the results depend on the processing

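The rise of the IgA share in SLE.yaa mice kept its sign and call with DESeq2, in cells of the expression table and at 3 or more UMIs. It also kept them without annotated plasma cells and with each mouse left out (log2 fold change 2.35 to 3.25). Its sign turned with TMM factors (-1.11, and -0.67 for clones). Among switched chains the call was lost without WT 1 or WT 2, with values of -2.99 to -2.40 over the mice left out. The pair probability difference of -0.153 points turned to 0.177 in plasma cells alone and ranged from -0.593 to 0.287 with 1 mouse left out. In SLE.yaa 1 the 352 genes past a log2 change of 1 became 768 with a pseudocount of 1 and 1141 with no filter. The 70 calls of the 2 mice became 2 with a pseudocount of 1, 14 without TMM factors, 37 without immunoglobulin genes and 0 without the replicate block; all 20 named genes kept their sign throughout, and lost their call without the block and with a pseudocount of 1. Without the replicate block no cell type, IGHV or IGHJ call changed (0 in each). Tests within mice were not run with a mouse left out, since 1 mouse leaves no residual degrees of freedom. The few IgA cells set the precision, above all in WT mice with 7 and 4.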

Other observations

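Among the 75 distinct IgA junctions 1 was also read in another mouse. It came from an unmutated IGHV7-1 IGHJ1 cell of WT 1 with 139 contig UMIs that is not in the expression table. The same 48 bases were read in 2 IgD B cells of SLE.yaa 1 with IGHV1-59 and IGHV1-9, and in 1 IgD B cell of WT 2 with IGHV3-1, so the junction is shared while the V gene differs. The deposited table gives 0 added bases between V and D in the IgA cell and in the WT 2 cell, and 1 in both SLE.yaa 1 cells. CDR3 is in capitals.
WT 1, IGHV7-1 IGHJ1: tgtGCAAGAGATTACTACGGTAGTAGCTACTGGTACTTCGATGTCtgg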
